A study of Rattus norvegicus with 15 samples.

Results

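The liver glucuronosyltransferases of the Ugt2 family and the enzymes that supply their sugar donor were read in female rats given fipronil, an insecticide that blocks chloride channels of insect nerves, or its vehicle. The members are Ugt2a1, Ugt2a3, Ugt2b, Ugt2b1, Ugt2b10, Ugt2b15, Ugt2b17 and Ugt2b35, together with Ugdh and Ugp2. They were chosen by gene name, current or older, and 9 of the 10 had a probe on the array. These 9 members held 13 of the 41012 non-control probes. Ugt2b17 had no probe of its own, and its symbol is carried in RefSeq as an older name of both Ugt2b1 and Ugt2b15.

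All animals were Wistar Crl:WI females aged 2 to 3 months. The treated rats (n = 8) were dosed orally with fipronil, 3 mg/kg each day, over 14 days. The control rats received the dosing liquid alone, methylcellulose (0.5%) with Tween 80 (0.01%) in water, over the same period (n = 7). RNA from a piece of the large liver lobe of each rat was labelled with Cy3 and hybridised to a 1-colour Agilent array, 15 arrays on 4 slides that each held both groups. The labels number the rats but do not give litter or cage.

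Glucuronosyltransferases sit in the endoplasmic reticulum of the hepatocyte and join glucuronate to drugs, steroids, bile acids and bilirubin, so that the product can leave in bile or urine. The glucuronate comes from UDP-glucuronate. Ugp2 makes UDP-glucose from glucose 1-phosphate and UTP, and Ugdh oxidises UDP-glucose to UDP-glucuronate. In rodents several liver glucuronosyltransferases are known to be raised by drugs and pesticides that act through the receptors CAR and PXR.

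The 13 probes all lie on chromosome 14 of the rn4 build. The 9 Ugt2 probes span 674.7 kb, from Ugt2a1 (22068631 to 22068690) through Ugt2a3 (22099965 to 22100024), Ugt2b (22178777 to 22178836), Ugt2b15 probe 1 (22348631 to 22348690), probe 2 (22420991 to 22421050) and probe 3 (22422764 to 22422822), Ugt2b35 (22478931 to 22480029) and Ugt2b1 (22650838 to 22650897) to Ugt2b10 (22743224 to 22743283). The probe of Ugdh lies at 45570166 to 45570225. The 3 probes of Ugp2 start at 102072808, 102079959 and 102084045. The coordinates of the Ugt2b35 probe span 1099 bases and those of Ugp2 probe 2 span 712, while the others span 59 or 60. No file used here says whether a probe lies in an exon, an intron or a UTR.

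The names in the array design are old. The Ugt2b1 probe is listed there as Udpgtr2, the Ugt2b35 probe as Ugt2b4 and Ugt2b15 probe 1 as Ugt2b3. Ugt2b15 probes 2 and 3 are listed as Ugt2b5, and RefSeq now gives the accession of probe 2 to the neighbouring gene Ugt2b37. The Ugt2a3 probe is listed under a transcript number and was found by its description. These genes are close copies of each other, and cross-hybridisation between them was not tested.

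The RefSeq promoter table of the GRCr8 build shows how near some copies are. The 250 bases before the start of Ugt2a3, Ugt2b1, Ugt2b35 and Ugt2b are shown because the first 3 of these genes were higher with fipronil and Ugt2b differed from rat to rat. They lie on the plus strand of chromosome 14, at chr14:20851720-20851969 for Ugt2a3, chr14:21378632-21378881 for Ugt2b1, chr14:21208191-21208440 for Ugt2b35 and chr14:20985199-20985448 for Ugt2b. Capitals mark motif matches in Ugt2a3 and Ugt2b1, and in Ugt2b35 and Ugt2b the longest run of bases that these 2 share with Ugt2b15 and Ugt2b37.
Ugt2a3: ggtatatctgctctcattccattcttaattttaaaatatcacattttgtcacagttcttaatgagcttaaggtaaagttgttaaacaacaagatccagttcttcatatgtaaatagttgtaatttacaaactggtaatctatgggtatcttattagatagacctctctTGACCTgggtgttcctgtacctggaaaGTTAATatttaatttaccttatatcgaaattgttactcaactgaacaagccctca
Ugt2b1: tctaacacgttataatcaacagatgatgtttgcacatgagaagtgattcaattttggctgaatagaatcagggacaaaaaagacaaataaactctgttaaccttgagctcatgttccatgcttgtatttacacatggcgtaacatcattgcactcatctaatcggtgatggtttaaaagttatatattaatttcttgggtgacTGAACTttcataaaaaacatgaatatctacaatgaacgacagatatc
Ugt2b35: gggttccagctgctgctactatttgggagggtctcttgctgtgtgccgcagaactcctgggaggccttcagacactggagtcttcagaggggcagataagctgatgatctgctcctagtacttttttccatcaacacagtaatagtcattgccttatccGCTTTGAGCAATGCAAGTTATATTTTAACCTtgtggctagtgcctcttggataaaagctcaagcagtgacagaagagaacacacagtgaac
Ugt2b: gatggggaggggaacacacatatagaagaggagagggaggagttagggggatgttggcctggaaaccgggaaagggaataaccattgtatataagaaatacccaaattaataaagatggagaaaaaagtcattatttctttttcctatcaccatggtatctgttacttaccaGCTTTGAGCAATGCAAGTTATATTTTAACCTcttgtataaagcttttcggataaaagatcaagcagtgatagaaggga

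The shared run is 31 bases long and starts 91 bases before the gene in Ugt2b35, 82 in Ugt2b15, 78 in Ugt2b and 70 in Ugt2b37. It was found in 5 of the 33469 promoter windows, those 4 genes and the unnamed locus LOC134478834, and not in the windows of Ugt2a3, Ugt2b1 or Ugt2b10. Over the whole 300-base windows Ugt2b15 and Ugt2b37 were identical at 267 of 287 aligned bases (93.0%), while Ugt2a3 and Ugt2b1 matched at 66.8% of aligned bases. The shared run was present in the promoter of Ugt2b35, which passed the test below, and in those of Ugt2b15 and Ugt2b, whose probes did not.

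The motifs searched, on both strands of each 300-base window, were AGGTCA and AGTTCA, which nuclear receptors bind, GTTAAT, which HNF1 binds, TGACNNNGC, the core of the antioxidant response element, and GCGTG, the core of the Ah receptor element. Ugt2a3 held AGGTCA (as TGACCT on the printed strand, 82 to 77 bases before the start) and GTTAAT (55 to 50 bases before it). Ugt2b1 held AGTTCA (as TGAACT, 47 to 42 bases before the start). Ugt2b35 and Ugt2b held none of these 5. Ugt2b15 and Ugt2b37 held AGGTCA (27 to 22 and 15 to 10 bases before the start), Ugt2b10 held GTTAAT after its start, Ugdh held TGACNNNGC overlapping GCGTG, and Ugp2 held GCGTG. Among all windows AGGTCA was found in 16.2%, AGTTCA in 14.5%, GTTAAT in 7.45%, TGACNNNGC in 12.1% and GCGTG in 29.7%, so a match in a window of this length is common.

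Signals are given as log2 intensity minus the 75th percentile of the array, so that 1 unit is a factor of 2 and a signal of 0 is as bright as that percentile. Levels of different probes are not compared. A probe was tested where it was well above background on at least 7 arrays, and called where limma's adjusted p over all 23259 tested probes was under 0.05. Of the 13 member probes 12 were tested. Of these, 3 were called higher and 0 lower, against 124 of all tested probes higher (0.533%) and 67 lower (0.288%). The median difference was 0.38 over the 12 member probes and 0.44 over the 8 tested Ugt2 probes, against -0.02 over all tested probes. The mean was higher with fipronil for 9 of the 12, and for 45.7% of all tested probes. An unadjusted p under 0.05 was found for 7 of the 12, and for 17.2% of all tested probes.

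**Figure D1:**
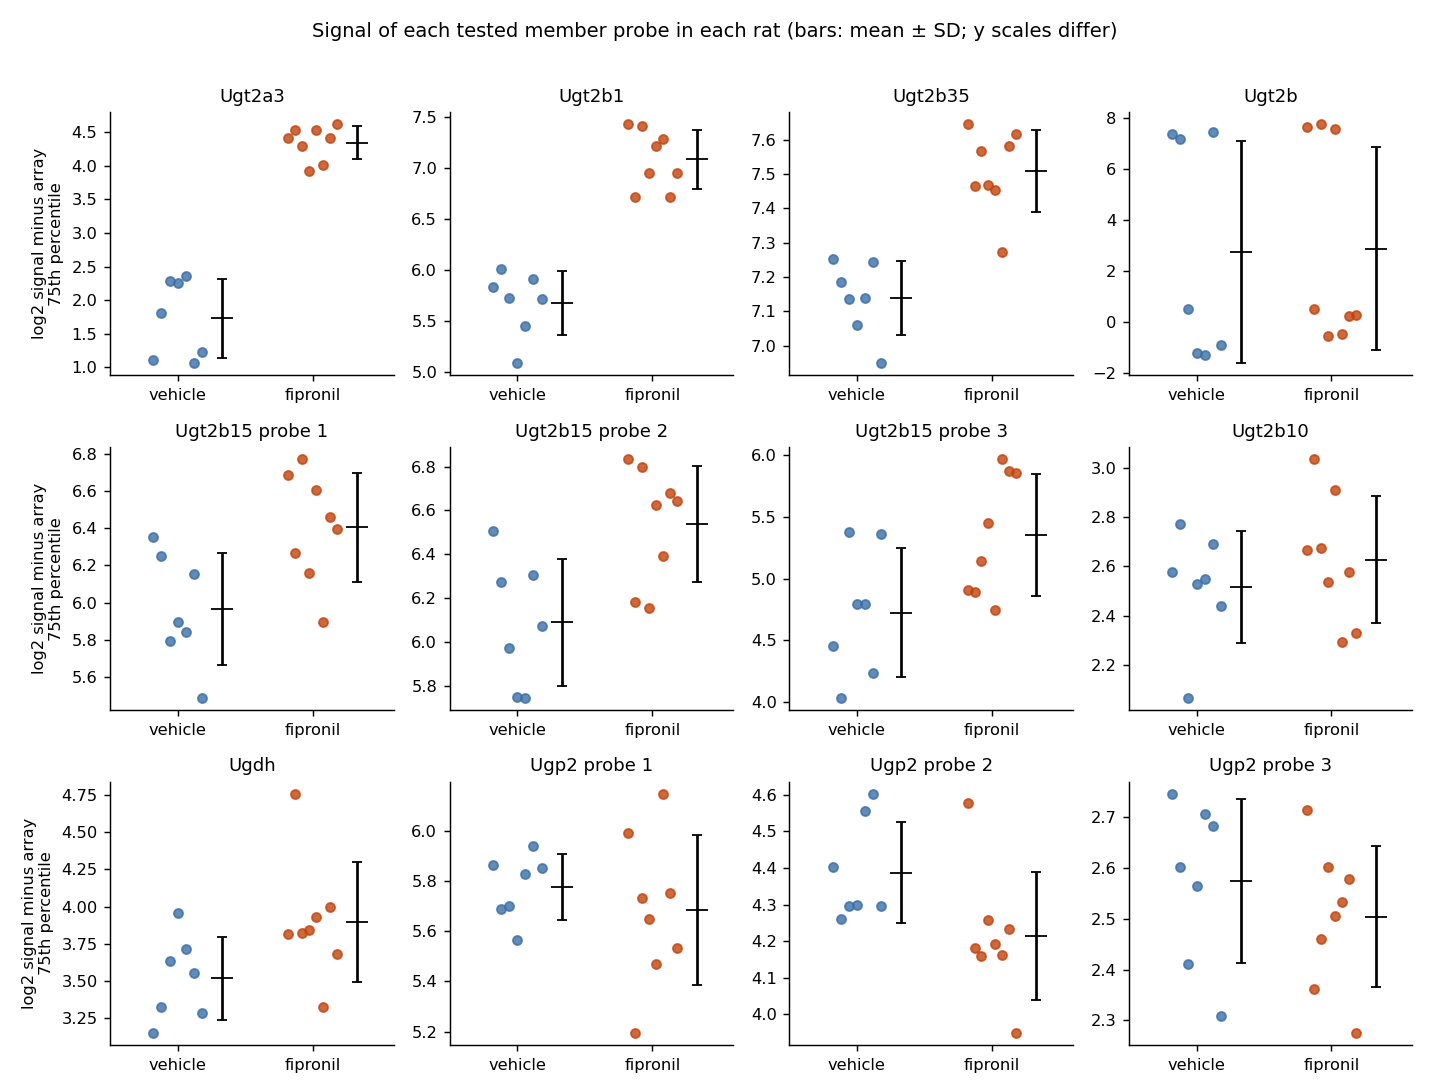
Signal of each of the 12 tested member probes in each rat (log2 intensity minus the 75th percentile of the array; blue, vehicle, n = 7; red, fipronil, n = 8; black bars, mean ± SD; the y axes differ between panels and do not start at 0). The groups are apart for Ugt2a3, Ugt2b1 and Ugt2b35, overlap for the other 9 probes, and in both groups the points of Ugt2b fall into a high and a low set.

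Ugt2a3, a member of the 2A branch that is expressed in liver and intestine, rose most. Its signal in the vehicle rats was lowest at 1.06, had a median of 1.81 and reached 2.36, and in the fipronil rats these values were 3.93, 4.41 and 4.61. Every fipronil rat was thus above every vehicle rat, by at least 1.56 on the log2 scale. The mean went from 1.73 ± 0.59 (SD, n = 7) to 4.34 ± 0.25 (SD, n = 8), a log2 difference of 2.61 (SE 0.21; 6.11-fold, 95% interval 4.48 to 8.32; limma adjusted p = 2.16e-06). The vehicle rats were less alike than the fipronil rats: vehicle rats 1, 6 and 7 lay at 1.10, 1.06 and 1.22, rats 3, 4 and 5 at 2.29, 2.25 and 2.36, and rat 2 between them at 1.81. The difference was 3.02, 1.84, 1.90 and 3.37 on slides 1 to 4.

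Ugt2b1, which is known to conjugate steroids and drugs and to be induced by phenobarbital, rose as well. The vehicle rats had a lowest signal of 5.09, a median of 5.73 and a highest of 6.02, and the fipronil rats 6.72, 7.09 and 7.43. No fipronil rat overlapped the vehicle range. The mean went from 5.68 ± 0.32 (SD, n = 7) to 7.09 ± 0.29 (SD, n = 8), a log2 difference of 1.41 (SE 0.15; 2.66-fold, 95% interval 2.13 to 3.31; limma adjusted p = 7.22e-05). Within slides 1 to 4 it was 1.15, 1.78, 1.80 and 1.02.

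Ugt2b35, a further member of the 2B branch, rose by far less but with little spread between rats. Its signal ran from 6.95 over a median of 7.14 to 7.25 in the vehicle rats and from 7.27 over 7.52 to 7.64 in the fipronil rats, so that the groups met without overlapping. The mean went from 7.14 ± 0.11 (SD, n = 7) to 7.51 ± 0.12 (SD, n = 8), a log2 difference of 0.37 (SE 0.08; 1.29-fold, 95% interval 1.16 to 1.44; limma adjusted p = 0.0270). The difference was 0.34, 0.42, 0.22 and 0.50 on slides 1 to 4. The call was close to the threshold and was lost under 14 of 34 alternatives. Over all 34 the adjusted p ranged from 0.00753 to 0.294 and the difference from 0.31 to 0.42. Leaving out fipronil rat 1, 3, 7 or 8 or vehicle rat 2, 4 or 7 was enough to lose it (adjusted p = 0.0554 to 0.0628), as was array brightness as a covariate (0.31, adjusted p = 0.264).

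These 3 were also the member probes whose groups did not overlap, which 139 of all tested probes did (0.598%). By an exact permutation test of the group means (2-sided, 6435 assignments of 8 of 15 rats, not adjusted), p was 0.000155 for Ugt2a3 and Ugt2b1, the smallest that this design can give, and 0.000311 for Ugt2b35. In liver tissue, more cells of a type and more RNA per cell cannot be told apart.

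**Figure D2:**
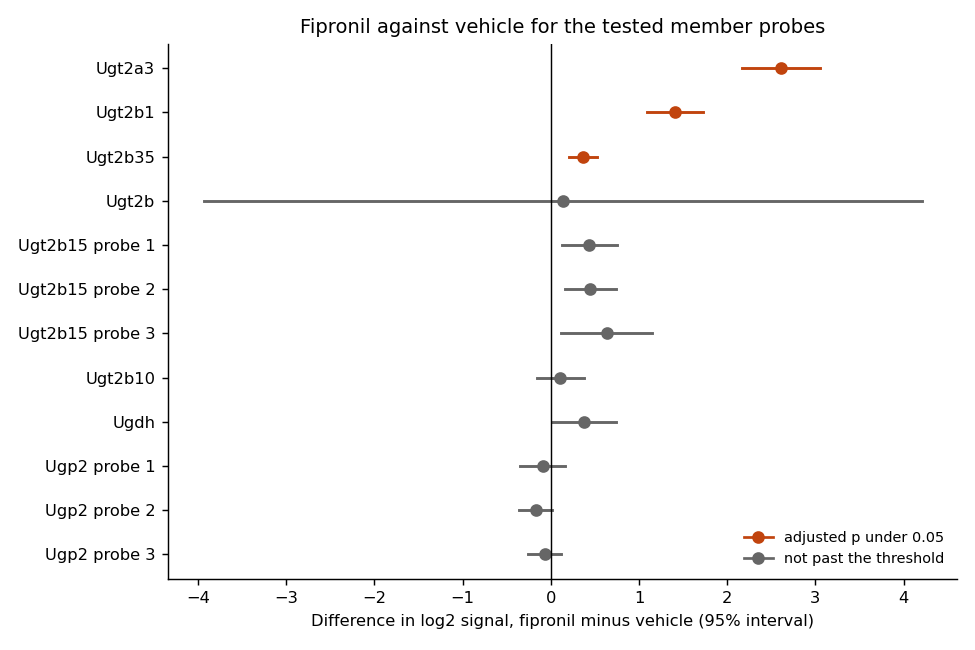
Log2 difference between fipronil and vehicle rats for each tested member probe (points) with its 95% interval from limma (lines); red marks an adjusted p under 0.05. Ugt2a3 (2.61), Ugt2b1 (1.41) and Ugt2b35 (0.37) passed, and the interval of Ugt2b runs from -3.93 to 4.20.

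The Ugt2b probe split the rats into a high and a low set in both groups. Ugt2b encodes the enzyme that conjugates androsterone and other 3-hydroxyandrogens, and Wistar stocks are known in which some rats lack this activity. Its signal was 7.38, 7.18 and 7.46 in vehicle rats 1, 2 and 6 and 0.52, -1.23, -1.28 and -0.88 in vehicle rats 3, 4, 5 and 7. It was 7.63, 7.74 and 7.55 in fipronil rats 1, 3 and 5 and 0.51, -0.54, -0.45, 0.25 and 0.28 in fipronil rats 2, 4, 6, 7 and 8. Thus 6 rats lay between 7.18 and 7.74 and 9 rats between -1.28 and 0.52, and none lay between. The empty stretch was 6.65 log2 units wide, a factor of 100.5 between neighbouring rats. Of 23169 probes with a value on every array, 3 had a gap at least as wide, Ugt2b included. For the other tested members the widest gap between neighbouring rats was 1.56 (Ugt2a3, between the groups).

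The 6 rats with a high Ugt2b signal were 3 of 8 with fipronil and 3 of 7 with vehicle, and were found on all 4 slides. The difference between the group means was 0.13 (SE 1.92; 95% interval -3.93 to 4.20; limma adjusted p = 0.983), and the exact permutation p was 0.941. This interval pools the high and the low set, and leaves changes of several log2 units in the pooled mean undetectable. It does not describe changes within a set, which were not tested. The high rats lay at 7.55 to 7.74 with fipronil and 7.18 to 7.46 with vehicle. The low rats lay at -0.54 to 0.51 with fipronil and -1.28 to 0.52 with vehicle. On slides 1 to 4 the difference between the group means was -3.20, 3.95, 4.82 and -3.02. It changed sign under 13 of 34 alternatives (-1.34 to 1.55 over all of them). The probe was well above background on all 15 arrays, the low rats included.

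A probe that is no member, chosen after its values were seen, gave the same split. It is named DQ351215 in the array design, lies at 22179488 to 22179547 on rn4 chromosome 14, and starts 711 bases from the start of the Ugt2b probe. Its signal was 1.05, 0.67 and 0.90 in vehicle rats 1, 2 and 6 and 0.98, 1.26 and 0.86 in fipronil rats 1, 3 and 5, and it was well above background on these 6 arrays alone. In the other rats it lay between -6.36 and -5.21. Both probes thus sorted the 15 rats in the same way. The probe AA858993, at 22179584 to 22179643 beside DQ351215, did not. Its signal in fipronil rat 1 (-6.35) and vehicle rat 2 (-6.09) lay among those of the rats low for Ugt2b. That probe was dim, well above background in 0 of 8 fipronil rats and 1 of 7 vehicle rats. Another probe chosen after its values were seen, BQ781799 on chromosome 3, lies away from the cluster. It sorted the rats as Ugt2b did, over a far narrower range. Its signal was -2.81 to -2.43 in the 6 rats high for Ugt2b and -3.58 to -2.998 in the others. A probe picked in this way cannot show that the split reached beyond the cluster, and why it followed Ugt2b was not tested. Ugt2b1, which lies further along the cluster, was at 5.83, 6.02, 5.73, 5.09, 5.45, 5.91 and 5.72 in vehicle rats 1 to 7, its 3 highest values in rats 1, 2 and 6, and at 7.43, 6.72, 7.42, 6.95, 7.22, 7.29, 6.72 and 6.95 in fipronil rats 1 to 8, its highest in rats 1 and 3. The part of the Ugt2b split in the spread of other probes, by cross-hybridisation or otherwise, was not tested. The files used here hold no genotype.

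**Figure D3:**
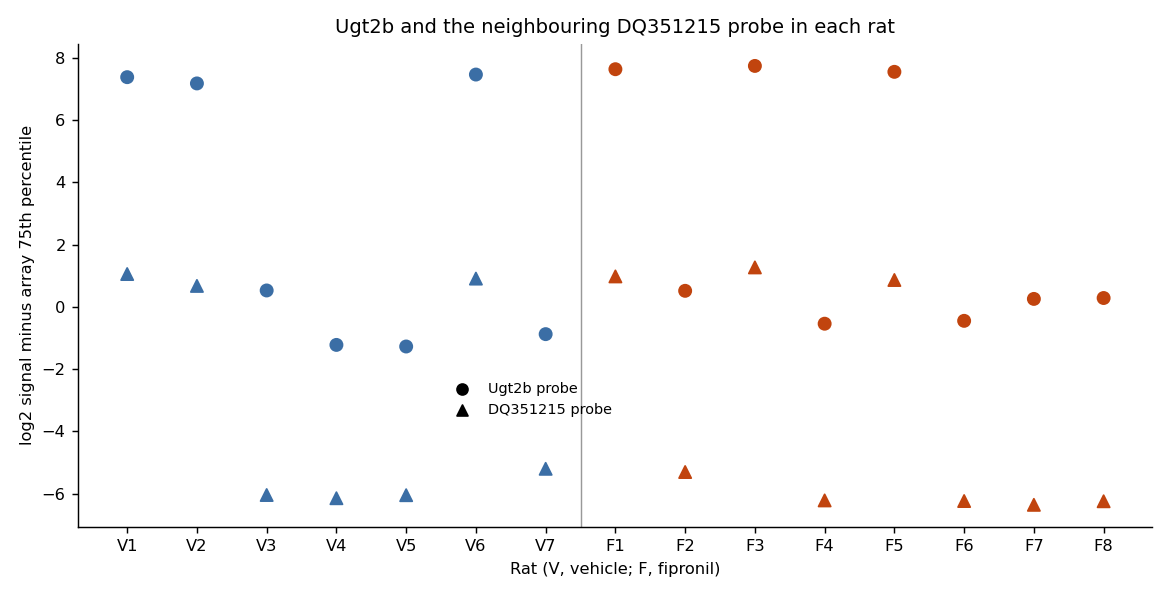
Signal of the Ugt2b probe (circles) and of the DQ351215 probe (triangles) in each rat (log2 intensity minus the 75th percentile of the array; blue, vehicle rats V1 to V7; red, fipronil rats F1 to F8). Rats V1, V2, V6, F1, F3 and F5 are high for both probes and the other 9 rats are low for both, with triangles at -5.21 or lower.

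By older or current name 3 probes were placed under Ugt2b15, a testosterone-conjugating enzyme, and none of them passed. By accession probe 1 belongs to Ugt2b15 and probe 2 to Ugt2b37, while probe 3 was given no gene that way. Probe 1 went from 5.97 ± 0.30 (SD, n = 7) to 6.40 ± 0.29 (SD, n = 8), a difference of 0.44 (SE 0.15, limma adjusted p = 0.160). Probe 2 went from 6.09 ± 0.29 to 6.54 ± 0.26, a difference of 0.45 (SE 0.14, limma adjusted p = 0.131). Probe 3 went from 4.72 ± 0.52 to 5.35 ± 0.50, a difference of 0.63 (SE 0.24, limma adjusted p = 0.205). For probes 2 and 3 all 8 fipronil rats, and for probe 1 7 of them, lay above the vehicle mean, and the groups overlapped for each probe. Their 95% intervals were 0.12 to 0.75, 0.16 to 0.74 and 0.12 to 1.15, so none of them reaches the change of Ugt2a3. They kept their sign on every slide.

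From rat to rat probes 1 and 2 moved together and probe 3 did not follow them. Over deviations from the group means (15 rats, a description with no test), probes 1 and 2 correlated at r = 0.72, probes 1 and 3 at r = -0.71 and probes 2 and 3 at r = -0.30. Agreement was not particular to probes under this name. The Ugt2b probe correlated with probes 1, 2 and 3 at r = 0.85, 0.80 and -0.76, and Ugt2b35 with probe 1 at r = 0.82. Probe 3 lay at 4.45, 4.03, 5.38, 4.80, 4.79, 4.24 and 5.36 in vehicle rats 1 to 7 and at 4.91, 4.89, 5.14, 5.45, 4.75, 5.97, 5.87 and 5.86 in fipronil rats 1 to 8. Probe 1 lay at 6.35, 6.25, 5.79, 5.89, 5.84, 6.15 and 5.49 in the vehicle rats and at 6.68, 6.27, 6.77, 6.16, 6.60, 5.89, 6.46 and 6.39 in the fipronil rats. In the vehicle group, rats 1, 2 and 6 had the 3 highest values of probe 1 and the 3 lowest of probe 3. In the fipronil group, rats 1, 3 and 5 had the 3 highest values of probe 1, and rat 5 the lowest of probe 3. These 6 rats are the ones with a high Ugt2b signal. Probes 1 and 3, both placed under Ugt2b15 by an older name, thus ran against each other across rats.

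**Figure D4:**
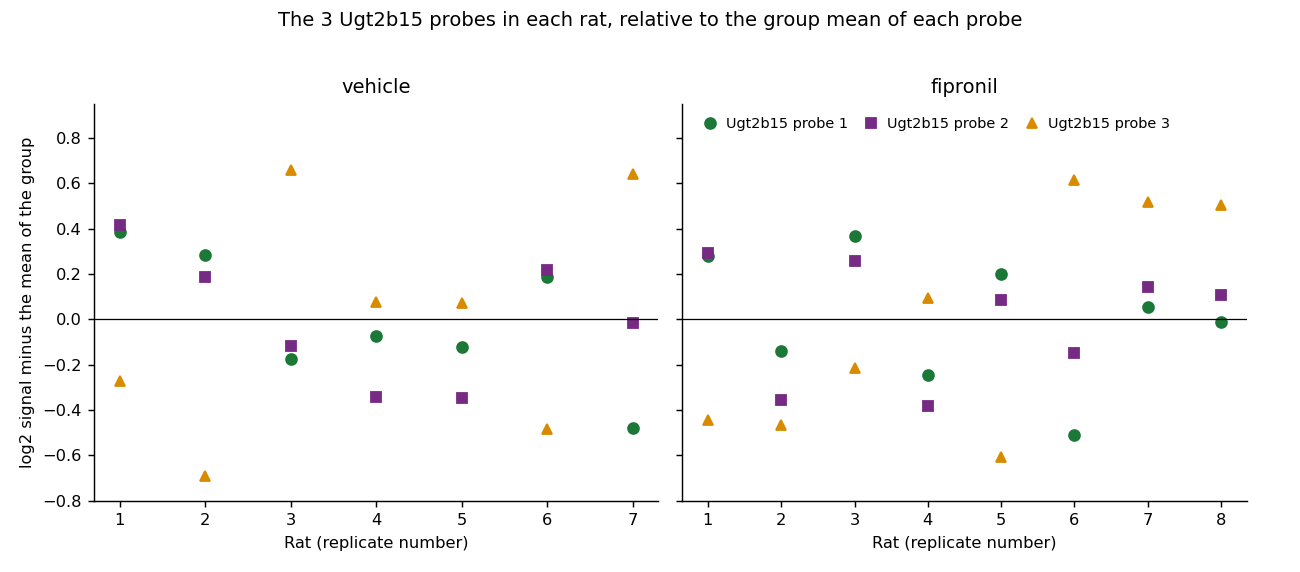
Signal of the 3 Ugt2b15 probes in each rat, relative to the mean of that probe in the group of the rat (log2; vehicle rats on the left, fipronil rats on the right). Probes 1 and 2 (circles and squares) lie mostly on the same side of 0, and probe 3 (triangles) lies opposite probe 1 in most rats (r = -0.71 over 15 rats).

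Ugt2b10, the last Ugt2 gene of the cluster read here, differed by 0.11 (SE 0.12; 95% interval -0.15 to 0.37; limma adjusted p = 0.704), from 2.52 ± 0.23 (SD, n = 7) to 2.63 ± 0.26 (SD, n = 8). Ugt2a1, an enzyme of the olfactory epithelium, was not tested, because its probe was well above background in 2 of 8 fipronil rats and 0 of 7 vehicle rats. Its measured signals ranged from -5.25 to -3.73 with fipronil and from -6.38 to -4.12 with vehicle, too dim for a fold. Among the markers of olfactory epithelium Omp, Cyp2g1 and Cyp2a3 were above background on no array.

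Neither supply enzyme passed. Ugdh ran from 3.15 over a median of 3.56 to 3.95 in the vehicle rats and from 3.32 over 3.83 to 4.76 in the fipronil rats. The groups overlapped, and 2 fipronil rats exceeded the highest vehicle rat. The difference was 0.38 (SE 0.17; 95% interval 0.02 to 0.74; limma adjusted p = 0.270), and 1.05, 0.04, -0.09 and 0.42 on slides 1 to 4. It was 0.26 without fipronil rat 2, the highest, 0.14 without slide 1 and 0.16 with array brightness as a covariate. The 3 Ugp2 probes differed by -0.09, -0.17 and -0.07 (SE 0.12, 0.09 and 0.09; limma adjusted p = 0.749, 0.343 and 0.730). Their 95% intervals were -0.35 to 0.17, -0.37 to 0.02 and -0.26 to 0.11. They correlated with each other at r = 0.45 to 0.75 over deviations from the group means (15 rats, no test).

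**Figure D5:**
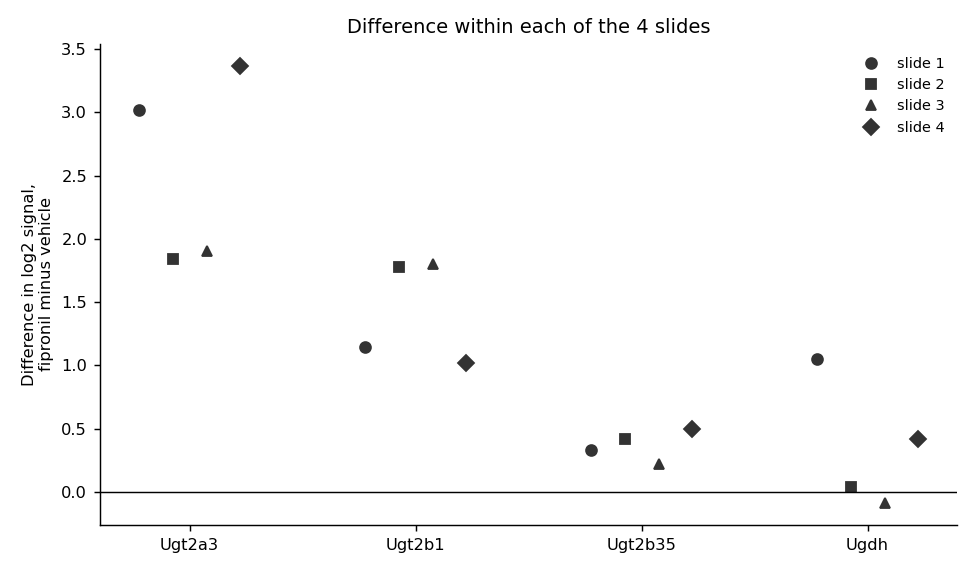
Log2 difference between fipronil and vehicle rats within each of the 4 slides (2 against 2 rats, and 2 against 1 on slide 3) for the 3 called members and Ugdh. Ugt2a3, Ugt2b1 and Ugt2b35 are above 0 on every slide, and Ugdh lies at 1.05, 0.04, -0.09 and 0.42.

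Members changed by unequal amounts. The within-rat difference of each of the 66 pairs of tested member probes was compared between the groups by an exact permutation test (2-sided), with p adjusted over the 66 pairs, and 28 pairs passed at 0.05. The rise of Ugt2a3 was larger than that of Ugt2b1 by 1.20 (adjusted p = 0.0126, exact permutation test), and larger than that of every other probe apart from Ugt2b (10 of 11 pairs). The rise of Ugt2b1 was larger than that of Ugt2b35 by 1.04 (adjusted p = 0.000733, exact permutation test) and than that of Ugdh by 1.03 (adjusted p = 0.0156, exact permutation test). Against Ugt2b15 probe 3 it was larger by 0.78, which did not pass (adjusted p = 0.0914, exact permutation test). Ugdh and Ugp2 probe 2 differed by 0.55 in their changes (adjusted p = 0.0243, exact permutation test), and the other Ugp2 probes did not pass against Ugdh. No pair with Ugt2b passed.

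The rest of the glucuronidation pathway was read from lists of genes that are not members. Of the Ugt1a, Ugt3a and Ugt8 glycosyltransferases, 4 probes of 3 genes were tested and 3 probes of 2 genes rose. Ugt1a1, the bilirubin-conjugating enzyme, rose 4.75-fold (limma adjusted p = 2.36e-08), and the 2 probes of Ugt1a2 3.07-fold and 2.55-fold (adjusted p = 9.33e-08 and 1.15e-07). Ugt1a6, which conjugates planar phenols, differed by -0.12 (adjusted p = 0.685). The Ugt1a transcripts share most of their exons, so that probes in the shared part read several of them.

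The genes around the sugar donor were next. Of 12 probes for UDP-glucuronate transport and glucuronate metabolism 1 rose: Cryl1, which oxidises L-gulonate in the pathway that breaks glucuronate down, went from 2.59 ± 0.34 (SD, n = 7) to 3.80 ± 0.33 (SD, n = 8), 2.30-fold (limma adjusted p = 0.00143; 1.12 on the log2 scale and adjusted p = 0.0886 without slide 1). Of 25 probes of 18 genes that form UDP-glucose or use it otherwise 0 passed, with a median of -0.10. The smallest p there was that of Gyg1, glycogenin, at 0.36 (limma adjusted p = 0.0850). A probe of Pgm1, phosphoglucomutase, named here after its values were seen, differed by 0.44 (limma adjusted p = 0.0959) and passed with slide as a fixed block (0.40, adjusted p = 0.0490). The other Pgm1 probe differed by 0.11 (limma adjusted p = 0.658). Where 0.533% of all tested probes were called higher and 0.288% lower, lists of this size hold few or no calls at the background share, and a count of 0 says nothing particular about these genes.

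The same holds for the 2 lists that follow. Of 7 probes of 5 conjugate exporters 0 passed. Abcc2, the canalicular pump for glucuronides, had the smallest p (0.43, limma adjusted p = 0.0763) and passed with a trend and robust prior (0.43, adjusted p = 0.0499). A probe of Abcc3, a basolateral exporter of glucuronides named here after its values were seen, differed by 1.01 (limma adjusted p = 0.0993). It passed without vehicle rat 3 (1.19, adjusted p = 0.0366) and without slide 3 (1.35, adjusted p = 0.0364). The other Abcc3 probe differed by 0.84 (limma adjusted p = 0.2). That probe was well above background in 6 of 8 fipronil rats and 2 of 7 vehicle rats. Of 12 tested probes of nuclear receptors and hepatocyte factors 0 passed. The smallest p was that of Nr1h4, the bile acid receptor FXR (0.46, limma adjusted p = 0.152), while PXR (Nr1i2) differed by -0.03 and the 2 probes of CAR (Nr1i3) by 0.01 and 0.05.

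For each called member the named probes of other genes that followed it most closely from rat to rat were found by Pearson correlation of deviations from the group means over the 15 rats, as a description. Ugt2a3 was followed by Mapk12 (r = 0.87), Psmd12 (r = 0.87) and Exoc6 (r = 0.85). Ugt2b1 was followed by Cfap97 (r = 0.86) and Rmnd5a (r = 0.85), and Ugt2b35 by Srp72 (r = 0.91), Anp32b (r = 0.89) and Zfp597 (r = 0.87). None of these 8 genes was itself called.

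The arrays of the fipronil rats were brighter. The percentile used for scaling lay at an intensity of 209.9 ± 25.8 (SD, n = 8) against 171.5 ± 33.3 (SD, n = 7) (exact permutation p = 0.0196, adjusted p = 0.0261 over 3 measures), and 57.0% against 55.0% of probes were well above background. With that brightness as a covariate 42 probes were called in place of 191, Ugt2a3 (2.45, adjusted p = 0.000159) and Ugt2b1 (1.54, adjusted p = 0.000398) among them. Of the 12 hepatocyte marker probes 8 were saturated on all 15 arrays and that of Apoa1 on 11, so that their levels are bounds and their differences are not read. The 3 never saturated, of Fgb, Cps1 and Tat, differed by 0.03, -0.02 and -0.14 (limma adjusted p = 0.982, 0.960 and 0.587). Of the other 7 marker lists 0 probes were called, with medians from -0.10 to 0.31, the highest that of 6 endothelial probes; the part of cell makeup in the results was not tested. The number of arrays limits the precision of every value.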

How the data were processed

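Intensity was measured on 1-colour Agilent arrays, 1 per rat, and extracted by the authors with Feature Extraction 9.5.3.1, per the file headers, whose files also hold flags for background, saturation and outliers. The authors' deposited value table, which served as an alternative, holds log2 values, and the submitters' processing notes name limma. Here processed intensity was set to log2 and each array's 75th percentile subtracted. Probes flagged as outliers were left out, and a probe was tested where it was well above background on at least 7 arrays and missing on at most 3. Each probe was fitted on its own with limma 3.58.1 (lmFit and eBayes, group only, R 4.3.3), p-values adjusted by Benjamini-Hochberg over 23259 probes. Probe coordinates are on rn4; RefSeq GRCr8 tables gave names and promoters. Every probe of every member is named; from each list, the called probes or the smallest p. Members and lists were chosen with earlier results of these data known. Replicate numbers were treated as labels only in the main fit. Whether rats of a group were raised apart is not stated, so p-values measure the spread between these samples. Alternatives covered background correction, scaling, filters, slide, brightness, weights and left-out arrays. A result on an item withheld from the text is not reported here.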

Additional observations from a re-analysis of the deposited data

Results flagged for a closer look

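Of 26 groups of member values examined for a sample far from the rest, 2 held one, where chance gives about 1 in 20. The Ugdh signal of fipronil rat 2 was 4.76, with the nearest fipronil rat at 4.00. The Ugt2a1 signal of vehicle rat 4 was -4.12, with the nearest vehicle rat at -5.52, and that probe was not well above background on any vehicle array. Fipronil rat 2 also had the brightest array of all 15, with a 75th percentile of 269.5.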

How the results depend on the processing

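The calls of Ugt2a3 (2.32 to 2.90) and Ugt2b1 (1.27 to 1.55) held under all 34 alternatives run for them. Ugt2b35 lost its call under 14, and the count of called member probes was 2 or 3 throughout. The difference of Ugt2b turned to -0.039 with normexp background correction, to -0.041 with median intensity, to -0.049 in the authors' table, to -0.076 with the brightness covariate, and to -1.34 and -0.76 without slides 2 and 3. Leaving out each rat gave Ugt2b -0.56 to 0.92. Ugp2 probe 1 turned to 0.022 with the brightness covariate. The called pathway probes numbered 3 to 5. Over all probes the count of calls was 191 in the main setting, 42 with the brightness covariate, 90 with no filter, 318 with slide as a random block, 37 and 45 without slides 1 and 4, and 102 to 307 when a rat was left out. Whether replicate numbers pair the rats was not settled. Same-numbered rats correlated at over 0.1 in 3 of 7 pairs, and 3 of 7 fipronil rats correlated best with their own number. Same-numbered rats also shared a slide, apart from those numbered 6, so number and slide cannot be told apart here. With the replicate block 97 probes were called, 2 of them members, and Ugt2b35 stood at 0.35 (adjusted p = 0.130). The permutation test with adjustment over member probes alone was not run. Signal over background limits Ugt2a1.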

Other observations

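The other 2 probes with a gap between neighbouring rats as wide as that of Ugt2b, named here because they share that width, sorted the rats differently. A probe listed as Mlc1_predicted lay at -6.00 and -5.66 in fipronil rat 1 and vehicle rat 5 and between 1.06 and 3.53 in the other 13 rats. A probe of Aldh1a4 lay at 4.36 in vehicle rat 5 and between -5.04 and -3.10 in the other 14. Vehicle rat 5 thus stood in the smaller set of both, and was low for Ugt2b. Of 2 further probes near the Ugt2 cluster that were looked at, that of LOC286989 (Ugt2b7) was well above background in 4 of 8 fipronil rats and 0 of 7 vehicle rats and was not tested, and AA858993 in 0 of 8 and 1 of 7.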
